A study of Mus musculus with 46 samples.

Results

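Gene expression was compared between Ki67-negative microglia that were repopulating the mouse brain and Ki67-negative microglia of the neonatal brain at postnatal day 8 (PND8). The comparison took every RNA library of the count table labelled as Ki67-negative and as either repopulating or PND8, which gave 2 libraries against 2, or 4 of the 10 RNA libraries among the 46 samples of the series. Both groups were male C57BL/6 mice that carried Ki67-rfp, a fluorescent reporter of Ki67, a protein of cycling cells. PND8 mice were untreated and 8 days old. Repopulating cells came from mice killed at 75 days that were fed PLX5622, an inhibitor of the receptor CSF1R that depletes microglia, for 17 days from day 55, followed by 3 days of recovery without the drug. The groups therefore differed in age as well as in treatment and recovery, and these cannot be told apart here. Microglia were stained for CD11b, CD45 and CD44 and sorted, and the labels call the 2 libraries of a group independent biological replicates. The study profiled proliferating microglia from several settings, of which neonatal brain and repopulation are compared here. Its adult microglia, from untreated wild-type males of 90 days, are given as a reference level. They share the estimate of spread in the fit but enter no contrast.

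Microglia are the resident macrophages of the brain. They depend on signals through CSF1R, so that blocking the receptor removes most of them, and the survivors divide and refill the tissue once the drug is withdrawn. In the first postnatal weeks microglia multiply too, engulf apoptotic cells and synaptic material, and a subset near developing white matter expresses Spp1, Igf1, Gpnmb and Itgax, genes that also mark microglia near plaques and in demyelination. Type I interferon is sensed by the receptor chains Ifnar1 and Ifnar2, and its target genes carry interferon-stimulated response elements, in which 2 copies of GAAA lie 2 bases apart.

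Library totals ran from 6865903 to 10287876 counts, with 13781 to 14728 genes detected. Levels are given as CPM, counts per 1000000 of the scaled library size, for replicate 1 and then replicate 2. The replicates of PND8 stood further apart than those of repopulation, with a Pearson r of log2 CPM across genes of 0.984 against 0.992. PND8 replicate 1 held more RNA of immediate early genes (2772 against 1443 CPM summed over a list of 20) and of choroid plexus genes (266 against 108 CPM over 5) than PND8 replicate 2. A numeric code in the file headers, which the labels do not explain, was 200309 for PND8 replicate 2 and repopulation replicate 1 and differed for the remaining pair. No other code was shared by the groups, so fits with the code as a term lean on the libraries of code 200309. Cells sorted as Ki67-negative still held Mki67 RNA, which encodes Ki67, at 242 and 282 CPM in PND8 cells and at 336 and 463 CPM in repopulating cells, against at most 13.4 CPM in adult cells, and the file headers call the sorted fractions Ki67 low and Ki67 high.

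Between the groups, 4473 of 12230 tested genes differed, which is 36.6% of them, at an adjusted p under 0.05 in edgeR's quasi-likelihood fit (Benjamini-Hochberg over all tested genes). In repopulating cells 2203 genes were higher (18%) and 2270 were lower (18.6%), and the median log2 fold change over all tested genes was -0.04. Without scaling factors, from library sizes only, the split was 1829 higher and 3064 lower. Changes beyond 2-fold were seen for 775 of the higher and 633 of the lower genes. Interferon response genes formed the most uniform list: 32 of 32 tested members rose. Genes of neonatal activation with a large fall were Gpnmb, Igf1 and Spp1, and Apoe, Igf2bp3 and Mrc1 fell with them. The core microglial genes P2ry12 and Csf1r did not pass the test. In a fit of only the 4 libraries compared, 3231 of 11920 tested genes differed. Leaving out repopulation replicate 1 reduced the called genes to 2869.

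**Figure D1:**
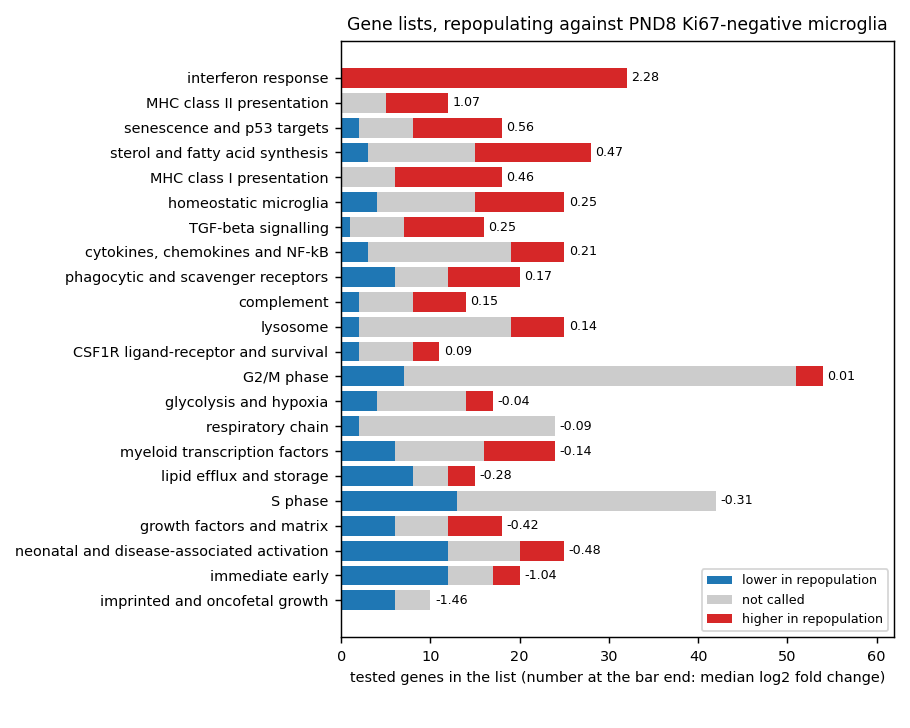
Bars give the number of tested genes of each of 22 lists that were lower in repopulating cells (blue), not called (grey) or higher (red) by edgeR at an adjusted p under 0.05, and the number at each bar end is the median log2 fold change. The interferon list is red throughout (32 of 32), whereas S phase, immediate early, neonatal activation and the imprinted and oncofetal lists are mostly blue and grey.

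The interferon response promoters are shown first because the list moved as a whole. RefSeq promoter windows of GRCm38.p6, from 250 bases before to 50 bases after a start, were matched by symbol to 9737 of the 12230 tested genes and to 23 of the 32 interferon members. The 3 members with the largest rise that had an entry were Oas3 at chr5:120777610-120777909 on the minus strand, Ifit3 at chr19:34583279-34583578 on the plus strand and Ifi44 at chr3:151749861-151750160 on the minus strand. They are printed 5′ to 3′ on the gene's strand, and capitals mark GAAANNGAAA or, for a match on the other strand, TTTCNNTTTC.
Oas3: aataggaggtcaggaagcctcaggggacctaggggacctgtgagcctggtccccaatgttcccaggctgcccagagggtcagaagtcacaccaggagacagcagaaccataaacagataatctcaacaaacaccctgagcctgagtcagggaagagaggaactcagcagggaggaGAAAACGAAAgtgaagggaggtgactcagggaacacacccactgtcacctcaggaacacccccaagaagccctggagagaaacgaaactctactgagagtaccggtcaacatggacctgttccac
Ifit3: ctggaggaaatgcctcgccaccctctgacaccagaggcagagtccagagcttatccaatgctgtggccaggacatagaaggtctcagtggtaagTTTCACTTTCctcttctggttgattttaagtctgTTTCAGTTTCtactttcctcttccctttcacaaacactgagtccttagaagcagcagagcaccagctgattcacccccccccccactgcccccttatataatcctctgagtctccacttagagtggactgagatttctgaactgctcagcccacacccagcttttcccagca
Ifi44: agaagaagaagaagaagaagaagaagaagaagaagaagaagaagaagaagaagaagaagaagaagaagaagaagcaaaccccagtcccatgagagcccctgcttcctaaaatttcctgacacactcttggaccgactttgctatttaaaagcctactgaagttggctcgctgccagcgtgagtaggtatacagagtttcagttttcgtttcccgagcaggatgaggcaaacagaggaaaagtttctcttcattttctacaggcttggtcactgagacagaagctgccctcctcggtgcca
Oas3, which makes the messenger that activates RNase L, had a single match starting 75 bases before the start. Ifit3, which encodes a cytoplasmic antiviral protein, had 2 matches on the other strand, starting 156 and 122 bases before the start. Ifi44, an interferon-induced gene, had no match within this window. Searched on both strands, GAAANNGAAA was present in 13 of the 23 interferon promoters (56.5%) and in 314 of all 9737 promoters (3.22%). It was present in 99 of 1747 promoters of genes higher in repopulating cells (5.67%), in 34 of 245 of those with a log2 fold change over 2 (13.9%) and in 50 of 1834 promoters of lower genes (2.73%). These shares include the interferon members, and a match describes letters only.

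Each of the 32 interferon members was higher in both repopulating libraries than in both PND8 libraries. Over all tested genes, 7857 of 12230 (64.2%) had no overlap between the groups in either direction. Zbp1, a sensor of Z-form nucleic acid, was at 2.10 and 4.95 CPM in PND8 cells and at 43.3 and 52.3 CPM in repopulating cells, a log2 fold change of 3.69 ± 0.27 (SE; edgeR adjusted p = 2.5e-07). Usp18, which removes ISG15 from proteins and dampens the receptor, was at 5.20 and 5.78 CPM against 54.1 and 57.4 CPM. Ifit3 was at 4.95 and 9.91 CPM against 64.8 and 73.8 CPM. These groups did not overlap, and both PND8 values lay far below either repopulating value. Oas3 was at 1.49 and 2.11 CPM against 23.5 and 29.4 CPM, the largest log2 fold change of the list at 3.84 ± 0.36 (edgeR adjusted p = 2.7e-06). Irf7, the amplifier of interferon transcription, was at 9.78 and 16.9 CPM against 108 and 122 CPM. The smallest rises were those of the receptor chains, at log2 0.45 for Ifnar1 and 0.53 for Ifnar2. Ifnb1, which encodes interferon beta itself, was at 0.124 and 0 CPM against 0.416 and 0 CPM and was too low to be tested. The median log2 fold change of the list was 2.28, beside -0.04 over all genes. It was 1.94 between the libraries that share a header code and 2.77 between the remaining libraries. Summed over the list, PND8 cells held 1303 and 1378 CPM, adult cells 1475 and 1483 CPM and repopulating cells 3780 and 4093 CPM, so that PND8 lay near the adult level and repopulation apart from both. Oas, Ifit and Mx genes have close paralogs, between which the deposited counting may have divided reads.

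**Figure D2:**
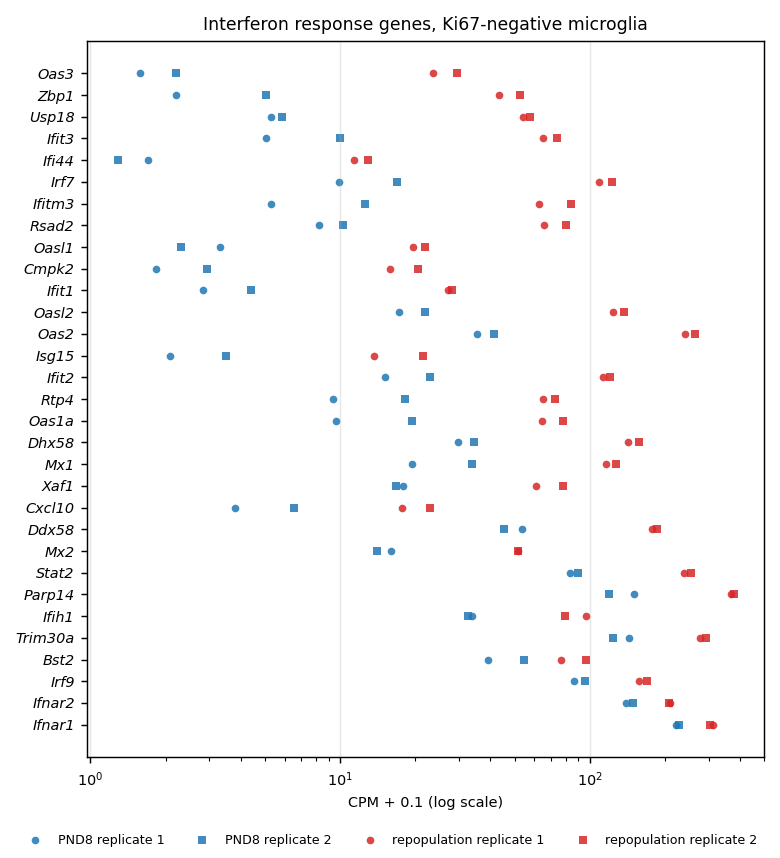
Each row is an interferon response gene, ordered by log2 fold change, and each point is the level in 1 library as CPM + 0.1 on a log axis (blue PND8, red repopulation). In every row shown both red points lie to the right of both blue points.

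Antigen presentation genes rose in part, beside 18% higher and 18.6% lower over all tested genes. Of 18 genes of MHC class I presentation, which displays peptides from inside the cell, 12 rose and 0 fell, with a median log2 fold change of 0.46. The median was 0.20 between the libraries that share a header code and 0.66 between the remaining libraries. With the header code as a term in the fit, 8 rose, with a median of 0.24. Nlrc5, the transactivator of class I genes, was at 18.2 and 29.4 CPM in PND8 cells and at 175 and 190.3 CPM in repopulating cells (log2 2.92 ± 0.20, edgeR adjusted p = 1.6e-07). H2-T23, a non-classical class I molecule, was at 53.2 and 58.9 CPM against 139.8 and 161 CPM. The groups were separate for both genes, and further rises were smaller, among them Tap1, a chain of the peptide transporter, with log2 0.85. B2m, the shared light chain, was at 317 and 284 CPM against 311 and 392 CPM and did not pass the test. The count of higher class I genes was 7 without repopulation replicate 2. Of 12 class II genes, 7 rose and 0 fell. H2-Ab1, a class II beta chain, was at 2.97 and 7.34 CPM against 38.1 and 34.0 CPM (log2 2.75 ± 0.30). Its partner chain H2-Aa was at 1.73 and 1.93 CPM against 1.25 and 3.96 CPM, and the invariant chain Cd74 was at 42.2 and 82.7 CPM against 37.3 and 49.7 CPM, neither of which passed. The peptide loaders H2-DMa and H2-DMb2 rose, with log2 1.65 and 2.25. Class I and class II genes are families of near copies, and the division of reads among them is uncertain.

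In the list of neonatal and disease-associated activation genes, 12 of 25 tested members fell, 5 rose and 8 did not pass. The median log2 fold change was -0.48. Among all tested genes 18.6% were lower and 18% higher, so the share that rose was near that over all genes. The promoters of the 3 members with the largest fall are printed below. Their windows were Gpnmb at chr6:49036268-49036567, Igf1 at chr10:87860861-87861160 and Lgals3 at chr14:47373610-47373909, all on the plus strand. The Igf1 entry starts 2059 bases from the start of the counted transcript, while Gpnmb and Lgals3 start where their counted transcripts do.
Gpnmb: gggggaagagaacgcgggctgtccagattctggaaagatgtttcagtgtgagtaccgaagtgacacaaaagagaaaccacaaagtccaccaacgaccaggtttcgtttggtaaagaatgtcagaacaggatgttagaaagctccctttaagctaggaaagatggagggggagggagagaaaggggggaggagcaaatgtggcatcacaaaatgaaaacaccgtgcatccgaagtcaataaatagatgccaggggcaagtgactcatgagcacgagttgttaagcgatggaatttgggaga
Igf1: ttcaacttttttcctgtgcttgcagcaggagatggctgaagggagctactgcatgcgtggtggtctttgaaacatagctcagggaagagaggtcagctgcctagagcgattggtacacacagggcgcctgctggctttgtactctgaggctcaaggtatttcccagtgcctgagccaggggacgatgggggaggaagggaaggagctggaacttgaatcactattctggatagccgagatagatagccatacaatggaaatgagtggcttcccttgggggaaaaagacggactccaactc
Lgals3: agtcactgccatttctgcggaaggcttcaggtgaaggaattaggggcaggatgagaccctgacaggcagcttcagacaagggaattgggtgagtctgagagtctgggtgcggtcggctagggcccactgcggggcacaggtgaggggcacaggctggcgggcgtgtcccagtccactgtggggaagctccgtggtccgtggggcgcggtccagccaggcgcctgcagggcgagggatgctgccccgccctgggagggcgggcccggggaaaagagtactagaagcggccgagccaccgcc
None of the 3 windows held GAAANNGAAA or either of TCACGTGA and TCATGTGA, letters bound by the MITF and TFE family of lysosomal regulators, so no letters are in capitals. Over all promoters, TCACGTGA was present in 190 (1.95%) and TCATGTGA in 74 (0.76%). In the 19 matched promoters of the list these counts were 0 and 1.

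Gpnmb, a membrane glycoprotein of lipid-loaded and lysosome-rich macrophages, was at 77.3 and 112 CPM in PND8 cells and at 0 and 0.457 CPM in repopulating cells, where it rested on 3 counts. The ratio of the pooled counts was 524, with a 95% counting interval of 179 to 2544 that leaves out the spread between mice. Igf1, a growth factor for neurons and oligodendrocytes, was at 145 and 161 CPM against 2.71 and 1.37 CPM (log2 -6.15 ± 0.19, edgeR adjusted p = 9.8e-11). Spp1, which encodes osteopontin, was at 238 and 279.7 CPM against 38.0 and 47.2 CPM, a log2 fold change of -2.61. Adult cells held 5.99 to 6.48 CPM of Spp1 and 2.93 to 3.35 CPM of Igf1, so repopulating cells lay below the adult level for Igf1 and above it for Spp1. Further members that fell included Lgals3, a galactoside-binding lectin, with log2 -3.17, and Fabp5, a fatty acid carrier, with log2 -3.09. Members of the same list went the other way. Axl, a receptor for apoptotic cells that interferon also induces, was at 78.8 and 139.8 CPM against 471 and 561 CPM (log2 2.23 ± 0.22, edgeR adjusted p = 4.2e-06), above the 37.0 and 41.9 CPM of adult cells. Ank, a pyrophosphate transporter, rose with log2 0.99 and the adhesion molecule Cadm1 with log2 0.75. Itgax, which encodes CD11c, was at 138 and 210.3 CPM against 174 and 190.3 CPM, and Cst7, a cathepsin inhibitor, was at 13.7 and 24.7 CPM against 20.3 and 21.2 CPM. Neither passed the test, and their groups overlapped. The higher members numbered 3 without repopulation replicate 2. Adult cells held 25.7 to 28.6 CPM of Itgax.

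**Figure D3:**
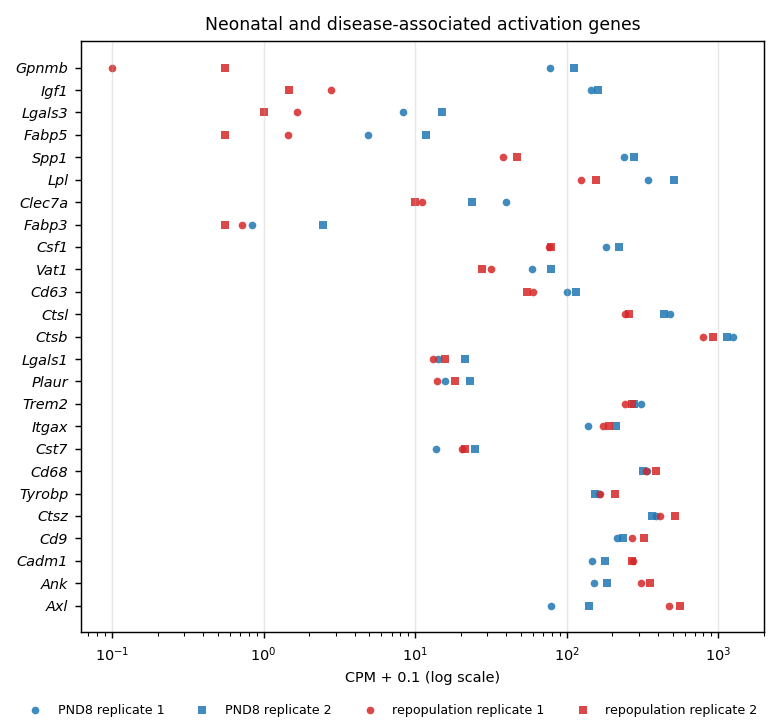
Each row is a neonatal or disease-associated activation gene, ordered by log2 fold change, with the level in each library as CPM + 0.1 on a log axis (blue PND8, red repopulation). Gpnmb and Igf1 are far lower in repopulating cells, the points of Itgax and Cst7 overlap, and Axl is higher in both.

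The 12 leading genes in each direction had a mean of at least 10 CPM in the higher group and no overlap between groups. Gcm2, a transcription factor of the parathyroid, was at 0 and 0.0917 CPM in PND8 cells and at 33.0 and 30.8 CPM in repopulating cells. Its ratio of pooled counts was 609, with a 95% counting interval of 109 to 24110, because PND8 held a single count, and adult cells held 0 and 0.611 CPM. St8sia1, the sialyltransferase that makes the ganglioside GD3, lies on chromosome 6 from 142821541 to 142964452 (mm10). It was at 0.990 and 2.38 CPM against 264 and 285 CPM, with 5.67 and 6.97 CPM in adult cells (log2 7.25 ± 0.21, edgeR adjusted p = 7.2e-11). Spock1, a matrix proteoglycan of the SPARC family, was at 0.495 and 0.183 CPM against 62.03 and 69.9 CPM, and adult cells held 1.16 and 1.10 CPM. For these 3 genes both repopulating values lay above all PND8 and adult values, and for St8sia1 and Spock1 both PND8 values lay below both adult values. Tgm2, a transglutaminase that cross-links proteins, had another pattern: it was at 1.98 and 2.66 CPM at PND8, at 205 and 220.5 CPM in repopulating cells and at 165 and 169.6 CPM in adult cells. Tnfsf13b, which encodes the B-cell factor BAFF, was at 1.24 and 2.20 CPM against 114 and 132 CPM. Fbn2, a microfibril protein, was at 0.371 and 0.275 CPM against 39.1 and 50.3 CPM, a ratio of pooled counts of 138 (95% counting interval 63.1 to 378), and was at 0 in both adult libraries. The other leading higher genes were Shisa7, P2ry14, Sh2d4b, Tnfsf8, Ch25h and Adgrg5, with fitted log2 fold changes of at least 5.64.

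Several of the leading lower genes are known from other cells. The globin genes Hbb-b1, Hbb-bs, Hba-a1 and Hba-a2, which mark red cells, were at 8.71 to 24.6 CPM in PND8 libraries and at 0 in both repopulating libraries. Hbb-b1 carried the same values as Hbb-bs, and Hba-a1 the same as Hba-a2, so each pair is a single measurement. Lyve1, a hyaluronan receptor of border macrophages and lymphatic vessels, was at 12.7 and 27.1 CPM against 0 and 0 CPM, at least 51.7-fold lower with 3 counts per library as the floor. Cxcr2, a chemokine receptor best known from neutrophils, was at 24.4 and 26.1 CPM against 0 and 0.152 CPM, a ratio of pooled counts of 409.8 (95% counting interval 73.2 to 16218) that rests on 1 count. Mamdc2 was at least 35.1-fold lower and Igfbp2, an IGF-binding protein, at least 30.2-fold lower. Apoc1, an apolipoprotein, and Atp6v0d2, a subunit of the vacuolar proton pump, were at 13.9 and 22.6 CPM and at 8.29 and 22.1 CPM in PND8 cells, and at no more than 0.305 CPM in repopulating cells.

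**Figure D4:**
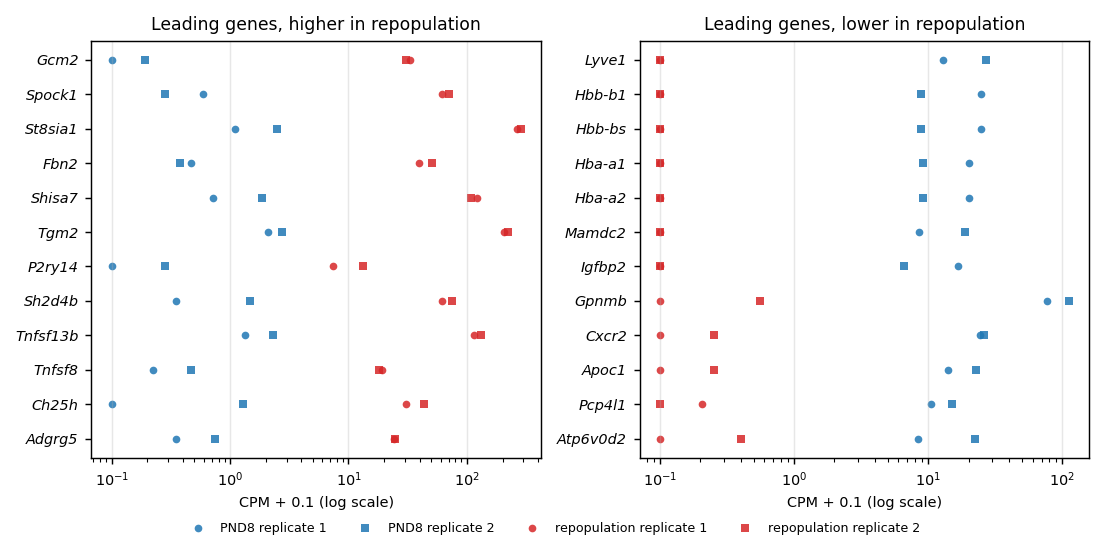
Levels in each library, as CPM + 0.1 on a log axis, of the 12 leading genes higher (left) and the 12 lower (right) in repopulating cells (blue PND8, red repopulation). The groups are separate in each row by construction, and points at 0.1 stand for 0 counts.

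Markers of choroid plexus, red cells and border macrophages mostly fell, while some other marker lists were mixed or went the other way. Choroid plexus genes (Ttr, Enpp2, Kl, Folr1 and Clic6) fell in 5 of 5 cases, with a summed level of 266 and 108 CPM in PND8 libraries against 6.04 and 3.20 CPM in repopulating ones. Of 7 erythroid genes, 6 were tested and 5 fell, and their sum was 78.8 and 31.6 CPM against 0.416 and 1.37 CPM. Of 10 border macrophage genes, 9 were tested, 7 fell and Siglec1 rose. Mrc1, the mannose receptor CD206, made up most of that sum, at 732 and 519.7 CPM against 28.9 and 25.6 CPM (log2 -4.51 ± 0.16, edgeR adjusted p = 4.5e-10). Lyve1, Pf4, Cd163 and F13a1 reached no more than 27.1 CPM at PND8. Siglec1, a sialic acid receptor that interferon induces, was at 34.7 and 43.2 CPM against 129 and 155 CPM. The astrocyte sum was 99.5 and 431 CPM against 502 and 568 CPM, of which the glutamate transporter Slc1a3 alone gave 70.5 and 421 CPM against 487 and 552 CPM. Of 7 tested astrocyte genes 1 rose, Aldh1l1 with log2 2.72. Gja1 and Gfap fell, with log2 -3.74 and -2.64, and the median of the list was -0.88. That median depended on the fit, over the members tested in each. It was 0.12 with the header code as a term, 0.30 without PND8 replicate 1 and -1.82 without PND8 replicate 2. Sums for neurons (2.74 to 11.1 CPM), fibroblasts (0 to 2.72 CPM) and monocytes or neutrophils (8.07 to 16.5 CPM) were low in all 4 libraries. The lymphocyte sum was 54.8 and 56.0 CPM against 23.9 and 19.05 CPM and was almost wholly Cd79b. Endothelial and mural genes summed to 67.7 to 87.5 CPM, and of 5 tested 2 rose and 1 fell. Oligodendrocyte lineage genes summed to 162 to 246 CPM, and of 6 tested 3 rose and 0 fell. Of 8 tested monocyte or neutrophil genes 2 rose and 1 fell. Among all 12230 tested genes 36.6% were called. In these bulk libraries fewer cells of a type and less RNA per cell cannot be told apart, and the part of such cells in the results was not tested.

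Of 25 genes of homeostatic microglia, 10 rose, 4 fell and 11 did not pass, with a median log2 fold change of 0.25. Over all tested genes 18% were higher and 18.6% lower. P2ry12, the purinergic receptor that steers microglial processes, was at 988 and 751 CPM in PND8 cells, 819.6 and 958 CPM in repopulating cells and 963 to 967 CPM in adult cells (edgeR adjusted p = 0.86). Csf1r was at 1617 and 1267 CPM against 1439.9 and 1783 CPM (edgeR adjusted p = 0.34). The groups overlapped for both genes. Tmem119, a microglial surface protein, was at 552 and 487 CPM against 694 and 855 CPM (log2 0.58 ± 0.11, edgeR adjusted p = 0.001). Bhlhe41, a transcription factor, rose with log2 0.96, Selplg with log2 0.75 and Tgfbr1 with log2 0.65. Fcrls, an Fc receptor-like protein, was at 732 and 595 CPM against 312 and 318 CPM (log2 -1.08 ± 0.10), and Ecscr fell with log2 -0.88. The balance depended on a single library: 17 members were higher and 2 lower without PND8 replicate 1, and 9 and 6 without PND8 replicate 2. Among 16 genes of TGF-beta signalling, which maintains the microglial state, 9 rose and 1 fell. Acvrl1, a type I receptor, was at 38.4 and 46.3 CPM against 111 and 125 CPM (log2 1.47). The count of risers was 6 without PND8 replicate 2 and 6 without either repopulation replicate.

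The counts of cell cycle genes depended on the library and on the header code. For reference, 18.6% of all tested genes were lower and 18% higher. S phase genes fell in 13 of 42 cases and rose in 0, with a median log2 fold change of -0.31. Ung, which removes uracil from DNA, was at 35.9 and 44.1 CPM against 12.8 and 21.0 CPM (log2 -1.26 ± 0.22, edgeR adjusted p = 0.00066). Gins2, part of the replicative helicase, had log2 -0.99 and Mcm5, a helicase subunit, log2 -0.51 (edgeR adjusted p = 0.035). Without repopulation replicate 1, 2 S phase genes were higher and 2 lower, and neither Gins2 (edgeR adjusted p = 0.055) nor Mcm5 (0.36) passed. The lower genes numbered 8 without PND8 replicate 2, where Mcm5 did not pass either (0.13), and 20 without repopulation replicate 2. Of 54 G2/M genes, which serve mitosis, 3 rose and 7 fell, with a median of 0.01. This split was 2 and 10 without PND8 replicate 1, and 18 and 3 without PND8 replicate 2. Mki67 itself rose with log2 0.61 ± 0.15 (edgeR adjusted p = 0.0059), and with log2 0.36 (edgeR adjusted p = 0.077) when repopulation replicate 2 was left out. Top2a, Ccnb1 and Pcna did not pass the test. With the header code as a term in the fit, 32 S phase genes were lower and 0 higher (median -0.58), and 27 G2/M genes were lower and 2 higher (median -0.32). Under that term Top2a had log2 -0.37 and passed (edgeR adjusted p = 0.022). This fit leans on the libraries of the 1 code shared by both groups. Between the libraries that share a code, the medians were -0.57 for S phase and -0.43 for G2/M genes. Between the remaining libraries they were -0.08 and 0.55. All 4 libraries lay above the adult ones, where the S phase list summed to 673 and 704 CPM. The same sum was 3127 and 3389.7 CPM in PND8 cells and 2231 and 3143 CPM in repopulating cells.

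A list of p53 targets and senescence genes rose in 10 of 18 cases and fell in 2, with a median of 0.56. By comparison, 18% of all tested genes were higher and 18.6% lower. Cdkn1a, the cell cycle inhibitor p21, was at 90.0 and 132 CPM in PND8 cells, 198 and 232 CPM in repopulating cells and 16.5 and 18.3 CPM in adult cells (log2 0.95 ± 0.14). Bbc3, which encodes the pro-apoptotic protein PUMA, was at 33.9 and 40.2 CPM against 89.7 and 86.7 CPM (log2 1.25 ± 0.11, edgeR adjusted p = 2.2e-06). Cdkn2a, a locus of cell cycle arrest, was at 3.09 and 4.77 CPM against 8.33 and 12.5 CPM. Pmaip1, which encodes the related protein NOXA, went the other way, at 29.6 and 31.7 CPM against 11.97 and 9.60 CPM (log2 -1.49). Among 13 genes of CSF1R ligands, cytokine receptors and survival, 11 were tested, 3 rose and 2 fell, beside 36.6% of all tested genes called. The receptor Csf2ra was at 182 and 182 CPM against 354 and 390.2 CPM (log2 1.03), and the pro-apoptotic Bcl2l11 fell with log2 -0.52, a call that was lost without PND8 replicate 2 or repopulation replicate 2 (edgeR adjusted p = 0.055 and 0.090). Csf1, the CSF1R ligand, belongs to the neonatal list and was at 183 and 223 CPM against 75.9 and 78.9 CPM, whereas Il34, the other ligand, was at 0 in all 4 libraries.

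Lipid genes moved in both directions, beside 18% higher and 18.6% lower over all tested genes. Apoe, the lipid carrier of glia and macrophages, lies on chromosome 7 from 19696244 to 19699188 and was at 543 and 474 CPM in PND8 cells against 61.2 and 55.5 CPM in repopulating cells (log2 -3.12 ± 0.13, edgeR adjusted p = 1.3e-09). Adult cells held 149 and 173 CPM, so both groups differed from the adult level in opposite directions. Of 17 genes of lipid efflux and storage, 15 were tested, 8 fell and 3 rose, and 5 fell without repopulation replicate 2. Plin2, which coats lipid droplets, fell with log2 -1.85. Cd36, a fatty acid and lipoprotein scavenger receptor, was at 5.69 and 12.9 CPM against 178 and 264 CPM, with 1.22 to 2.20 CPM in adult cells (log2 4.51 ± 0.35, edgeR adjusted p = 5e-07). Ch25h, which makes 25-hydroxycholesterol and is itself interferon-induced, was at 0 and 1.19 CPM against 30.6 and 43.6 CPM. Sterol and fatty acid synthesis genes rose in 13 of 28 cases and fell in 3. Scd2, a fatty acid desaturase, fell with log2 -0.68. The sterol count fell to 7 higher and 2 lower without PND8 replicate 2, and to 5 higher and 4 lower without repopulation replicate 2.

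Growth and matrix genes included fetal-type genes that were lower after repopulation. Of 17 imprinted and oncofetal genes, 15 were in the table and 10 were tested, of which 6 fell and 0 rose. Igf2bp3, an RNA-binding protein of fetal tissue, was at 80.2 and 81.6 CPM against 3.02 and 3.81 CPM, close to the 2.54 and 2.81 CPM of adult cells (log2 -4.59 ± 0.19, edgeR adjusted p = 1.7e-09). Lin28b, which blocks let-7 processing, was at 5.94 and 5.05 CPM against 0.104 and 0.152 CPM, where each repopulating library held 1 count (ratio of pooled counts 43.9, 95% counting interval 11.8 to 367). Igf2 was at 41.3 and 11.01 CPM against 0.416 and 0.152 CPM. Its 2 PND8 libraries stood in the same order as their choroid plexus sums of 266 and 108 CPM, and the part of those cells was not tested. Among 18 tested growth factor and matrix genes 6 rose and 6 fell, beside 18% higher and 18.6% lower over all tested genes. Mmp14, a membrane-bound matrix protease, was at 22.2 and 25.1 CPM against 114 and 121 CPM (log2 2.31 ± 0.11), next to 111 and 114 CPM in adult cells.

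Receptors and secreted factors of innate immunity showed no single direction. Of 20 tested phagocytic and scavenger receptors 8 rose and 6 fell. Colec12, a scavenger collectin, was at 12.6 and 14.6 CPM against 0.208 and 0.152 CPM, and Gas6, the ligand of Axl and Mertk, was at 596 and 556 CPM against 195 and 215 CPM (log2 -1.49 ± 0.09). Havcr2, which encodes TIM-3, was at 194 and 172 CPM against 372 and 396 CPM. Gas6 thus fell while its receptor Axl rose. In the complement list 6 of 14 tested genes rose and 2 fell, and the risers numbered 2 without repopulation replicate 2. Cfp, which encodes properdin and stabilises the alternative pathway convertase, was at 4.95 and 7.15 CPM against 75.8 and 90.5 CPM (log2 3.75 ± 0.22). Of 25 tested genes of cytokines, chemokines and NF-kB, 6 rose, 3 fell and 16 did not pass, a share called that is near the 36.6% over all tested genes. Il6 was at 1.11 and 1.56 CPM against 12.3 and 10.5 CPM, and Ccl3, a chemokine, was at 58.0 and 54.1 CPM against 12.9 and 12.8 CPM. Tnf, Il1b and Ccl2 did not pass.

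Immediate early genes, which respond within minutes to stimulation or handling, fell in 12 of 20 cases and rose in 3, with a median of -1.04. Among all tested genes 18.6% were lower and 18% higher, so the share that rose was near that over all genes. Fos was at 297 and 78.9 CPM in PND8 cells and at 5.10 and 2.29 CPM in repopulating cells. Egr1 was at 581 and 55.2 CPM against 14.5 and 11.7 CPM. PND8 replicate 1 was thus over 3 times as high as PND8 replicate 2 for both genes, and adult cells held 50.8 to 66.6 CPM of them. Without PND8 replicate 1, 8 members were lower and 2 higher, and Egr1 no longer passed (log2 -2.06, edgeR adjusted p = 0.090). Klf6 and Btg2 of the same list rose, with log2 0.83 and 0.74.

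The same contrast in Ki67-positive cells, from 4 other libraries, gave 3778 called genes (30.9%). Of the 4473 genes called in Ki67-negative cells, 3014 were called in the same direction in Ki67-positive cells, which is 67.4% of the former list and 79.8% of the latter, and 0 were called in opposite directions. Across the 12230 genes the 2 log2 fold changes had a Pearson r of 0.861, given as a description, since genes are not independent and sorted fractions with the same replicate number deviated from their group means together (correlation 0.35 at PND8 and 0.37 in repopulation). Interferon genes again rose in 32 of 32 cases, with a median of 2.22. The difference between the contrasts was tested by an interaction term, which called 0 genes by edgeR (0%). Without adjustment 613 genes had p under 0.05, and 3 genes were called by DESeq2. Without PND8 replicate 1 the edgeR count was 71. Mki67 had log2 0.61 in Ki67-negative and -0.01 in Ki67-positive cells (interaction adjusted p = 0.96 by edgeR). Among S phase genes 13 were lower and 0 higher in the Ki67-negative contrast, with a median log2 fold change of -0.31. In the Ki67-positive contrast 2 were lower and 8 higher, with a median of 0.08, and this difference between counts was not tested. Slc2a6, a glucose transporter of lysosomal membranes, came nearest by edgeR. It was at 3.22 and 6.05 CPM against 98.6 and 120.5 CPM in Ki67-negative cells, and at 16.5 and 17.0 CPM against 96.1 and 108 CPM in Ki67-positive cells (interaction log2 -1.90, edgeR adjusted p = 0.11). Spp1 fell by 2.61 on the log2 scale in Ki67-negative cells and by 1.39 in Ki67-positive cells (interaction adjusted p = 0.28 by edgeR). Both were among the 3 genes called by DESeq2 and were the 2 called with a replicate block, and they are named because of those calls.

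**Figure D5:**
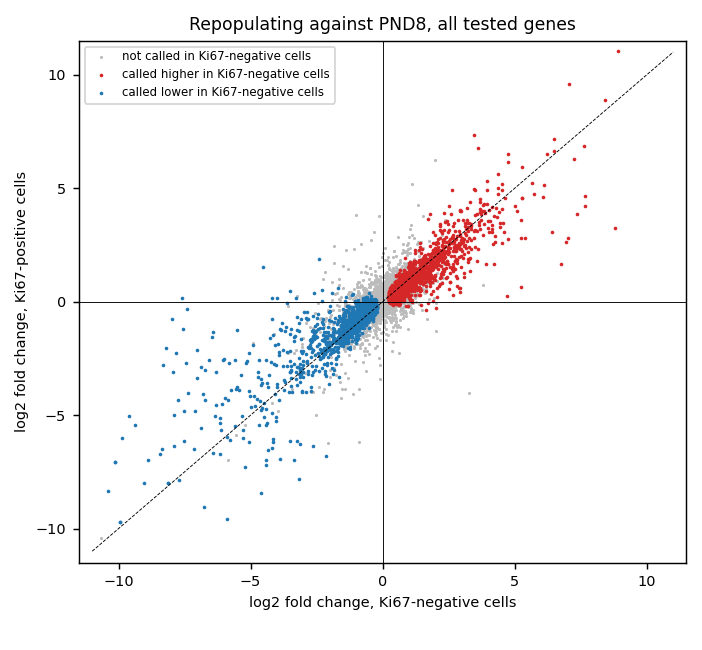
Each point is 1 of the 12230 tested genes, with its log2 fold change of repopulating against PND8 cells in Ki67-negative (x axis) and Ki67-positive cells (y axis). Red and blue points are genes called higher and lower in Ki67-negative cells, and the dashed line marks equal values; the Pearson r across genes is 0.861.

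Regions of H3K27ac, an acetylated histone found at active regulatory DNA, were listed for PND8 cells of both Ki67 fractions and for Ki67-positive repopulating cells, 6 libraries in all, from wild-type males. The repopulating mice of these libraries were 90 days old and received PLX5622 from day 70 for 17 days, with 3 days of recovery, and so were older than the 75-day mice of the RNA libraries. A gene was taken as marked where an authors' region lay over the start of its counted transcript. Of 330 genes that rose by over 2 on the log2 scale, 27.3% to 39.4% were marked in the 4 PND8 libraries and 45.8% to 53.6% in the 2 repopulating libraries. Of 319 genes that fell by as much, 19.7% to 25.1% were marked at PND8 and 7.21% to 11.9% in repopulation. Over all tested genes the shares were 74.8% to 81.5%. The 95% Wilson intervals of the 330 genes spanned 22.7% to 44.8% over the PND8 libraries and 40.5% to 58.9% over the repopulating ones, and they cover counting error only. In 33 of the 330 (10%) the start was marked in both repopulating and in no PND8 library, beside 69 of 12230 genes overall (0.564%). Gcm2, St8sia1, Tgm2 and Tnfsf8 were of this kind, and at St8sia1 the region signal was 216 and 260 tags per 10000000. Igf1 was the reverse, with 137 to 260 at PND8 and no region over its counted start in repopulation. Not every leading higher gene gained a region: Spock1 and Adgrg5 had none over the start in any of the 6 libraries. Tnfsf13b had regions in both repopulating libraries but also in both PND8 Ki67-positive libraries, at 39.2 and 41. Ifit3, of the promoters printed above, had regions in 5 of the 6 libraries, while Oas3 and Ifi44 had none. Clec7a, a beta-glucan receptor of the neonatal list, fell in RNA, at 39.9 and 23.5 CPM against 10.9 and 9.90 CPM (log2 -1.59), while its start carried a region signal of 0 to 58.2 at PND8 and of 214.5 and 290.8 in repopulating Ki67-positive cells. Region edges set these calls in part: the start of the expressed gene Csf1r lay in a region in only 3 of the 6 libraries.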

How the data were processed

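RNA was polyA-selected and made into strand-marking libraries, per the labels' protocols, and STAR 2.7.0f, HOMER 4.11, Bowtie2 and DESeq2 are named in the submitters' processing notes. The deposited counts are HOMER counts over exons of 1 mm10 transcript per gene, unadjusted, with at most 3 tags per position, per the file headers, which can hold down short abundant transcripts. TPM values were deposited as well, made by HOMER per the file headers, and 4532 genes have another transcript there. The H3K27ac signal is the authors' tag count per region, normalised to 10000000 tags, with regions called per library, per the file headers. The count header records no strand option, so reads of genes and their antisense partners may not be separated.

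The whole table of 20999 genes was fitted with edgeR 4.0.16 in R 4.3.3. Scaling was by TMM, genes were kept by filterByExpr with the group as its factor (12230 genes), and 1 quasi-likelihood fit over 10 libraries and 5 groups shared the spread (common biological coefficient of variation 0.0957). P-values were adjusted by Benjamini-Hochberg over all tested genes, with 0.05 as the threshold. Log2 fold changes are repopulation minus PND8, with standard errors (SE). An exact test of 2 libraries against 2 could not go below p = 0.333. CPM used TMM-scaled sizes. A group at 0 in both libraries gives a lower bound at a floor of 3 counts per library, and other groups with at most 3 counts per library give a ratio of pooled counts with an exact 95% interval. On simulated counts for this comparison (12021 genes), 80 of 98 genes changed by 1 on the log2 scale and 87 of 98 changed by 2 were called, as were 11 unchanged genes. The simulation changed far fewer genes than were called here and used the fitted spread, with no shift of a library or header code. Its rates may therefore not hold for these data.

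The libraries, 22 gene lists and 10 marker lists were chosen with earlier results of these data known, so list counts are descriptions beside the counts over all genes and carry no list test. Named genes were a panel of 9, the 12 leading genes per direction, and up to 4 called members per list and direction, and the members whose promoters are printed had the 3 largest rises or falls of their list among those with an entry. Ifnar1, Ifnar2, Irf7, Ifnb1, B2m, H2-Aa, Cd74, Spp1, Itgax, Cst7, Csf1, Il34, Cdkn1a, Mrc1, Pf4, Slc1a3, Enpp2, Tnf, Il1b, Ccl2, Clec7a and Slc2a6 were named after their values were seen. Alternatives covered scaling, the filter, DESeq2 1.42.0, limma 3.58.1 on log2(TPM + 1) and log2(TPM + 0.1), a 2-fold threshold, the replicate block, the header code and each library left out. A further alternative fitted only the libraries compared. Other H3K27ac, H3K4me3, Rpb2, ATAC-seq and input samples were not used here. Single values of a few list members are not reported here.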

Additional observations from a re-analysis of the deposited data

How the results depend on the processing

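The 4473 genes that differed became 600 when a fold of at least 2 was tested, and between 2869 and 4725 when single libraries were left out. With library sizes only, without TMM factors, 1829 genes were higher and 3064 lower, beside 2203 and 2270. When only the 4 libraries compared were fitted, 3231 of 11920 tested genes differed, 1784 higher and 1447 lower. The 0 genes of the interaction became 52 with no filter on low counts, 28 when the header code entered as a term, 3 by DESeq2, and 0 to 71 when single libraries were left out, 71 being without PND8 replicate 1. The replicate numbers are shared by both groups but the labels do not tie them to a common batch or mouse. Same-numbered libraries deviated together with a correlation of 0.103, and with a replicate block 5087 genes differed and 2 had an interaction. Top2a changed sign under the header-code term, to a log2 fold change of -0.37 (edgeR adjusted p = 0.022). With that term, S phase genes were lower in 32 and G2/M genes in 27 cases. That fit leans on the libraries of code 200309, the only code found in both groups. The higher interferon genes numbered 32 under every alternative listed except the 2-fold test, where they numbered 27. Of 182 genes named by the rule, 98 lost their call at 2-fold. Over all alternatives, and with these 98, single genes lost the call 238 times, gained it 5 times and reversed 1 time; the cause was not tested. Genes with few counts are limited by depth, since 3 counts equal 0.275 to 0.457 CPM.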

Other observations

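Between repopulating and PND8 Ki67-negative cells, where 36.6% of all tested genes were called, 2 of 24 respiratory chain genes fell and 0 rose, and 8 fell with the header-code term. Of 17 genes of glycolysis and hypoxia 3 rose and 4 fell, the latter count being 1 without PND8 replicate 2 or repopulation replicate 1. The lactate transporter Slc16a3 was at 75.7 and 89.6 CPM in PND8 cells and at 140.2 and 160.3 CPM in repopulating cells. Of 25 lysosome genes 6 rose, 2 fell and 17 did not pass, a share called near that over all genes. Ctsh, a cathepsin, was at 90.2 and 104 CPM against 301 and 350.0 CPM, whereas Atp6v0d2 went the other way. The count of lysosomal risers was 12 without PND8 replicate 1, 3 without PND8 replicate 2 and 2 without repopulation replicate 2.

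Of 24 tested myeloid transcription factors 8 were higher and 6 lower, beside 18% higher and 18.6% lower over all tested genes. Tfec, of the MITF and TFE family, was at 20.2 and 19.2 CPM against 2.29 and 2.59 CPM, close to the 1.62 and 1.10 CPM of adult cells. Maf was at 762 and 644 CPM against 424 and 414 CPM. With library sizes only, 12 factors were lower, and 10 with the header-code term or on the TPM scale.

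Genes that were lower in repopulating cells were nearer to that group than to PND8 in adult cells in 59.8% of 2270 cases, and genes that were higher in 56.5% of 2203 cases, beside 54.4% of the 7757 genes that were not called. The shares are descriptions of 2 adult libraries on the log2(CPM + 1) scale.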
